A study of Mus musculus with 79 samples.

Results

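Blood vessels of quadriceps muscle were followed through 9 genes of endothelial identity and angiogenesis: the ligands Vegfa, Vegfb, Angpt1 and Angpt2, the receptors Kdr, Flt1 and Tek, and the adhesion genes Pecam1 and Cdh5. They were taken by gene symbol from an array table of 35556 probesets that name 22335 genes, and each of the 9 genes had 1 probeset. The muscles came from males of BXD strains, inbred lines descended from C57BL/6J and DBA/2J, together with both parental strains. They ate a chow diet (CD, Harlan 2018) or a high fat diet (HFD, Harlan 06414) that began at 8 weeks of age, and all were fasted overnight and sacrificed at 29 weeks. Each of the 79 arrays (42 CD, 37 HFD) held pooled RNA of about 5 animals of 1 strain on 1 diet, so that spread between animals was not measured and every p-value below rests on the spread between strain pools. Of 42 strains, 37 had an array on both diets and 5 on CD alone.

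Vascular endothelial growth factors (VEGFs) are secreted by muscle fibres and other cells and act on receptor tyrosine kinases of endothelial cells. Kdr (VEGF receptor-2) carries most of the growth signal, and Flt1 (VEGF receptor-1) binds the same ligand more tightly and limits it as a decoy. The angiopoietins act on a separate endothelial receptor, Tek (Tie2): Angpt1 stabilizes vessels and Angpt2 loosens them in many settings. Quadriceps is mostly muscle fibre, so endothelial transcripts come from a minor population of its cells, and in bulk RNA fewer endothelial cells cannot be told apart from less RNA per cell.

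Values are scores on a log-type scale, and each array is scaled to mean 8.0 and SD 2.0 units. Differences are given in these units, since the log base was not stated, and the score of a gene is not comparable with that of another gene because probes differ. The labels give 2 batches of RNA extraction and arrays, with 35 and 44 arrays. The limma batch term and the diet by batch term each called 0 probesets and had 0 with a raw p under 0.05, the lowest raw p being 0.266 and 0.134. That is fewer than the share of 0.05 expected where batches do not differ, so these tests do not show that the batches were alike before processing, and a correction for batch before deposit is not given in the sources used here. The mean correlation of an array with the other arrays was lowest for the HFD arrays of BXD79 (0.975), BXD69 (0.976) and BXD62 (0.977). Over all probesets it rests largely on level differences between probesets, so it cannot show whether an array stood apart. Fast fibre transcripts, which define quadriceps, had a mean list score of 14.22 to 14.56 across arrays, and the list of 20 other endothelial genes lay between 9.05 and 9.59.

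Promoter sequence of the receptors is shown first, because Kdr, Flt1 and Tek moved together across strains, while Kdr was called higher in HFD and the other receptors were not called. RefSeq promoters (assembly GRCm38.p6, 250 bases before to 50 after the gene start) were given for 5 of the 9 genes. Capitals mark the ETS core GGAA and the hypoxia response cores ACGTG and GCGTG, searched on both strands, so that the reverse complements TTCC, CACGT and CACGC are in capitals too.
Kdr, chr5:75978406-75978705, minus strand: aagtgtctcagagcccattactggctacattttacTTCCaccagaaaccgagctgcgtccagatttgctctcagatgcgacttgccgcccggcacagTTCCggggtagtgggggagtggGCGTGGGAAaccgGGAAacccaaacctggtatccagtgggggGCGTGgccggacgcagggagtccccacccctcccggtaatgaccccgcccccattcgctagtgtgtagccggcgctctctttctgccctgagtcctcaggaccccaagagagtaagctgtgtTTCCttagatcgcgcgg
Flt1, chr5:147725962-147726261, minus strand: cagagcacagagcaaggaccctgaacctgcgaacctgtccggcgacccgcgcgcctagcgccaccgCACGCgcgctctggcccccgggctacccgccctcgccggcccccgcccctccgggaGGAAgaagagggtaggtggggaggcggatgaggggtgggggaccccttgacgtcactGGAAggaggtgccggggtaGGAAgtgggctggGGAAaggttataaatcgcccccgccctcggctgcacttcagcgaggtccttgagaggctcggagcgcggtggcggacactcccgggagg
Tek, chr4:94739039-94739338, plus strand: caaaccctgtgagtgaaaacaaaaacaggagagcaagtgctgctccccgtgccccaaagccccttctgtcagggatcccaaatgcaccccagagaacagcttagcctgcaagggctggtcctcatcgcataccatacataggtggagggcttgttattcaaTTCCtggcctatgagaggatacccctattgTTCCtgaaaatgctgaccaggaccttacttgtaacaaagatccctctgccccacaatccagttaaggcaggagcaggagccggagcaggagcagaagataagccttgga

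The Kdr window held GGAA 5 times (2 forward and 3 reverse) and GCGTG 2 times, 1 of which directly precedes a GGAA without sharing a base. The Flt1 window held GGAA 4 times, all forward, and GCGTG 1 time in reverse. The Tek window held GGAA 2 times, both reverse, and neither hypoxia core. Of the ligands, Vegfb held GGAA 2 times and GCGTG 2 times. The 2 Vegfa windows differed: the first held GGAA 6 times and no hypoxia core, and the second held GGAA 3 times with ACGTG and GCGTG 1 time each. Among all 32851 promoters of this length 96% held GGAA, 19.6% held ACGTG and 32.4% held GCGTG, and the median number of GGAA was 3. These matches describe the letters in these windows and no more.

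The effect of HFD on the 9 genes was asked first. Of the 9, 6 passed the test and were higher in HFD (Vegfb, Kdr, Angpt1, Angpt2, Pecam1 and Cdh5), and 0 were lower. Over all probesets, 18.9% were called higher in HFD and 19.3% lower, and the median difference was -0.001 over all probesets and 0.149 over the 9 genes. The balance of directions over the array is set by the scaling of every array to the same mean and SD, and with median centring 8199 of 13957 called probesets were higher in HFD. In the brightness deciles that hold the 9 genes, 24.7 to 41.8% of probesets were called in either direction. All 9 genes overlapped between the diets, and the called differences lay between 0.13 and 0.31 units.

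**Figure D1:**
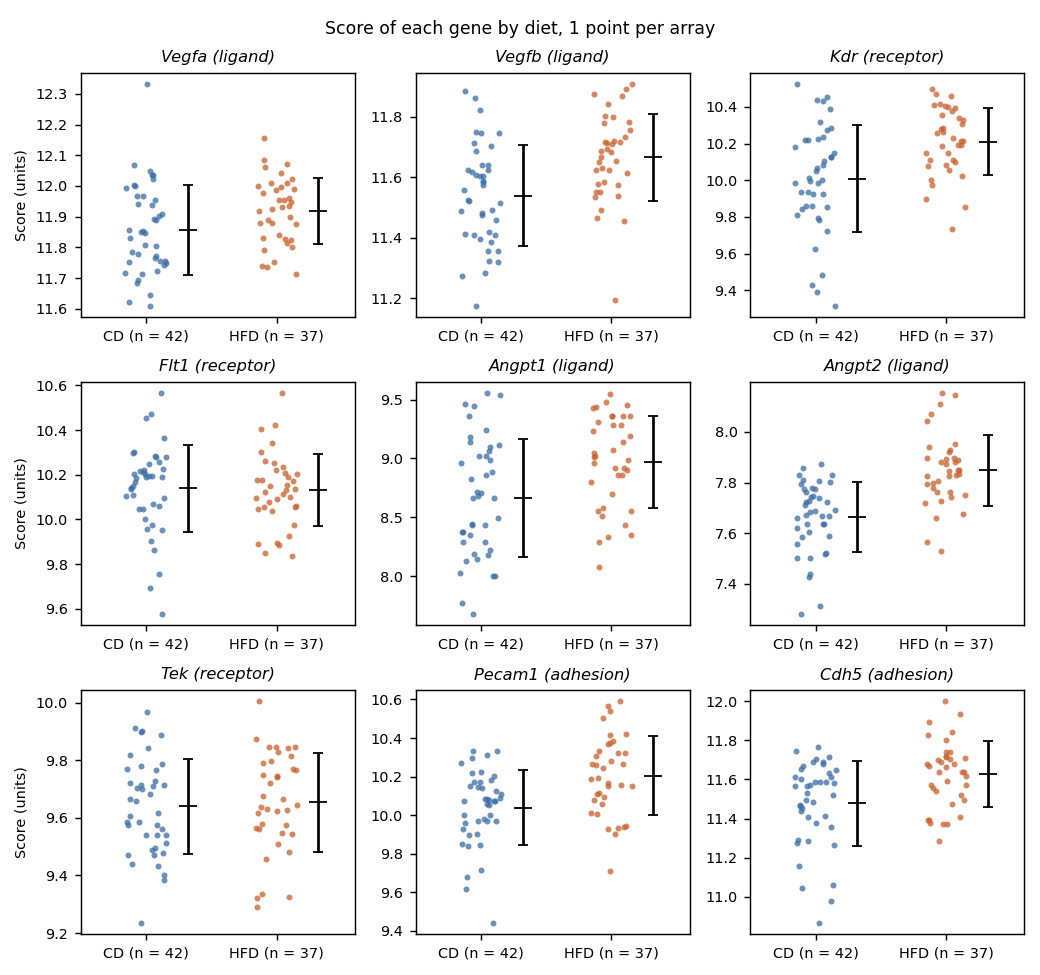
Score in units (y axis) of each of the 9 genes on CD (blue, 42 arrays) and HFD (orange, 37 arrays), with 1 point per strain pool and the mean ± SD in black beside the points. Angpt2 shows the clearest upward shift, with 15 of 37 HFD arrays above the highest CD array, whereas the Flt1 and Tek clouds lie at the same height on both diets.

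Vegfa, the main angiogenic ligand (probeset 10451198), ranged on CD from 11.61 in BXD43 to 12.331 in BXD56 with a median of 11.848, and on HFD from 11.713 to 12.157 with a median of 11.931. The HFD cloud thus lay inside the CD range. Its difference was 0.06 ± 0.0297 (SE), with an adjusted p of 0.0882 by limma, and 24 of 37 paired strains were higher in HFD. Leaving out BXD56, the highest CD strain, raised the difference to 0.076 with an adjusted p of 0.0227, and median centring with BXD56 kept gave 0.08 with an adjusted p of 0.0344, so that the call depends on this strain and on the scaling.

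Vegfb, a ligand of Flt1 that is abundant in oxidative muscle (probeset 10465559), ranged on CD from 11.176 to 11.886 with a median of 11.543, and on HFD from 11.195 to 11.907 with a median of 11.683. The ranges were nearly the same, but 31 of 37 HFD arrays exceeded the CD median. The difference was 0.13 ± 0.0354, with an adjusted p of 0.00263 and 27 of 37 strains higher in HFD. Over paired strains the Vegfb difference exceeded that of Vegfa by 0.08 units (SD 0.2), larger in 24 of 37 strains (permutation test exchanging diets within strains, two-sided p = 0.0244, and 0.0463 after adjustment over all 36 pairs of the 9 genes, of which 20 passed).

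Kdr, the growth-signalling VEGF receptor (probeset 10530692), ranged on CD from 9.316 in BXD83 to 10.523 in BXD68 with a median of 10.008, and on HFD from 9.735 to 10.499 with a median of 10.216. The lower part of the CD range was empty on HFD, since 6 CD arrays lay below the lowest HFD array and no HFD array lay above the highest CD array. Its difference was 0.2 ± 0.055, with an adjusted p of 0.00207 and 26 of 37 strains higher in HFD.

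Flt1, the decoy receptor (probeset 10535807), ranged on CD from 9.576 in C57BL/6J to 10.567 with a median of 10.186, and on HFD from 9.837 to 10.565 with a median of 10.134. The highest arrays of both diets were level. The difference was -0.01 ± 0.0407 with an adjusted p of 0.9 and a 95% interval from -0.089 to 0.073 units, and 17 of 37 strains were higher in HFD. Within strains the HFD minus CD difference of Kdr exceeded that of Flt1 by 0.22 units (SD 0.22), larger for Kdr in 31 of 37 strains. The permutation p for this contrast was 1e-05, the smallest that the draws can give, and 5.14e-05 after adjustment over the 36 pairs. By batch, the contrast was 0.24 in 12 strains measured in batch 1, 0.22 in 17 strains measured in batch 2 and 0.18 in the 8 split between batches. Likeness of the batches is no independent support, since the diet by batch term had fewer small p-values over all probesets than expected. All contrasts between genes set units of different probesets against each other, so their sizes also depend on the probes. The contrasts were added after the diet differences were known.

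Angpt1, the vessel-stabilizing ligand (probeset 10428376), had the widest spread of the 9 genes. On CD it ran from 7.679 in BXD70 to 9.557 in BXD65 with a median of 8.671, and on HFD from 8.076 in BXD51 to 9.548 in BXD45 with a median of 9.016. The upper ends were level and the lower end was raised on HFD, where 5 CD arrays lay below the lowest HFD array. The difference was 0.31 ± 0.101, with an adjusted p of 0.0118, and 32 of 37 strains were higher in HFD. The largest gains were in BXD43, at 1.137 units, and BXD96, at 1.068 units.

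Angpt2, the vessel-loosening ligand (probeset 10577315), was the dimmest of the 9, at the 47.7th percentile of probeset brightness. It ranged on CD from 7.279 to 7.873 with a median of 7.685, and on HFD from 7.528 to 8.155 with a median of 7.844. On HFD 33 of 37 arrays exceeded the CD median. The difference of 0.19 ± 0.0319 had the smallest adjusted p of the 9 genes, 1.97e-06, and 32 of 37 strains were higher in HFD.

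Tek, the receptor of both angiopoietins (probeset 10505954), ranged on CD from 9.236 to 9.966 with a median of 9.639, and on HFD from 9.29 to 10.004 with a median of 9.645. The difference was within the spread between pools: 0.01 ± 0.0382, with an adjusted p of 0.794 and a 95% interval from -0.061 to 0.091, and 20 of 37 strains were higher in HFD. Within strains the differences of Angpt1 and Angpt2 exceeded that of Tek by 0.32 units (SD 0.32, larger in 31 of 37 strains, permutation test, adjusted p = 5.14e-05) and 0.18 units (SD 0.24, larger in 27 strains, adjusted p = 0.000216).

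Pecam1, an adhesion molecule of endothelial junctions that leukocytes and platelets also carry (probeset 10392221), ranged on CD from 9.443 in C57BL/6J to 10.335 with a median of 10.075, and on HFD from 9.709 in BXD63 to 10.59 in BXD97 with a median of 10.194. On HFD 9 arrays exceeded the highest CD array. The difference was 0.17 ± 0.0447, with an adjusted p of 0.00175 and 26 of 37 strains higher.

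Cdh5, the VE-cadherin of endothelial junctions (probeset 10574438), ranged on CD from 10.868 in C57BL/6J to 11.766 with a median of 11.55, and on HFD from 11.287 in BXD63 to 11.999 in BXD71 with a median of 11.64. On CD 8 arrays lay below the lowest HFD array. The difference was 0.15 ± 0.044 with an adjusted p of 0.00467, although only 24 of 37 strains were higher in HFD. Within strains the Cdh5 difference exceeded that of Tek by 0.13 units (SD 0.19), larger in 26 of 37 strains (permutation p = 0.00026, adjusted p = 0.000851).

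Several measures moved with the diet groups beside these 6 calls. The mean of 1154 olfactory receptor probesets, genes not used by muscle, had a median of 6.09 on CD (5.99 to 6.26) and 6.05 on HFD (5.92 to 6.16). With this mean as a covariate 11033 of 35556 probesets were called in either direction. Of the 9 genes only Vegfb (adjusted p = 0.00124) and Angpt2 (adjusted p = 0.000685) stayed called, with differences of 0.15 and 0.14 units. The differences of Kdr and Angpt1 were then 0.14 (adjusted p = 0.0649) and 0.25 (adjusted p = 0.0734), against 0.2 and 0.31 without it. Those of Cdh5 and Pecam1 were 0.09 (adjusted p = 0.149) and 0.08 (adjusted p = 0.165), against 0.15 and 0.17.

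Within batch 1 alone, where 12.6% of all probesets were called, Kdr and Angpt2 were called, and within batch 2 alone, where 24.4% were, Vegfb, Angpt2 and Pecam1. The differences of the genes that lost their calls stayed close to those over all arrays: in batch 1 Vegfb had 0.13, Angpt1 0.33, Pecam1 0.18 and Cdh5 0.18 units, and in batch 2 Kdr had 0.18, Angpt1 0.28 and Cdh5 0.13 units. Over all probesets the limma diet by batch term had 0 raw p-values under 0.05, fewer than expected. Closeness of the 2 batches was therefore no independent support.

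Markers of other cells also differed by diet. Of 8 adipocyte genes 5 were called higher in HFD and 1 lower, and the list score had a median of 9.15 on CD (8.65 to 10.2) and 9.62 on HFD (8.78 to 10.52). Lep, the fat hormone leptin, rose by 1.58 ± 0.185 units (adjusted p = 5.02e-11), and Cfd, the fat-derived complement factor adipsin, fell by 0.61 units (adjusted p = 1.15e-05). Of 8 macrophage genes 6 were called higher and 0 lower, and the list score had a median of 8.67 on CD (8.22 to 8.99) and 8.85 on HFD (8.39 to 9.27). The part of fat and macrophages in the diet differences of the 9 genes was not tested. Of 10 mural cell genes, which mark pericytes and smooth muscle, 4 were called higher and 1 lower, with a median difference of 0.045; with strain as a block 2 were higher, since Pdgfrb (adjusted p = 0.0583) and Cnn1 (adjusted p = 0.0901) lost their calls. Of 6 red blood cell genes 1 was called higher, of 6 fibroblast genes 1 was called higher, and of 3 lymphatic genes 1 was called lower. Of 8 slow fibre genes 1 was called higher, Tpm3 (0.16, adjusted p = 0.00153), and 0 lower, with a median difference of -0.191; the list score had a median of 9.75 on CD (8.74 to 11.13) and 9.5 on HFD (8.59 to 10.92). Of 10 fast fibre genes 1 was called lower, Tnni2 (-0.1, adjusted p = 0.00251), with a median difference of 0.003. With the olfactory covariate 5 adipocyte genes stayed higher, but 3 macrophage genes and 1 mural gene did, and 2 mural genes were then lower.

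Other vessel genes were read from lists chosen by function. Of all probesets 38.1% were called in either direction, and the counts of these lists and of the lists above, several of them near that share, are given as descriptions. Among 6 further VEGF family members, 2 were called higher and 2 lower, with a median difference of 0.001. The neuropilin coreceptors were the higher ones: Nrp1, which presents VEGF to Kdr, rose by 0.27 ± 0.0406 (adjusted p = 9.32e-08, higher in 33 of 37 strains) and Nrp2 by 0.11 ± 0.0332 (adjusted p = 0.00804). The lower ones were a ligand and its receptor: Vegfc fell by 0.1 units (adjusted p = 0.00447, higher in HFD in 8 of 37 strains) and Flt4 fell by 0.16 units (adjusted p = 1.74e-05, higher in HFD in 7 strains). Figf, another ligand of Flt4, had a difference of 0.05 (adjusted p = 0.412), and Pgf, a ligand of Flt1, one of -0.04 (adjusted p = 0.4). Of the lymphatic list, the transcription factor Prox1 fell by 0.1 units (adjusted p = 0.00503), and Lyve1 (-0.07, adjusted p = 0.357) and Pdpn (-0.05, adjusted p = 0.227) did not pass. Nrp1, Vegfc and Flt4 kept their calls with the olfactory covariate, and Nrp2 did not (adjusted p = 0.194).

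Among 3 partners of the angiopoietin system, 1 was called higher: Ptprb, the endothelial phosphatase that acts on Tek, by 0.12 ± 0.0408 units (adjusted p = 0.0109, and 0.248 with the olfactory covariate). Tie1, the orphan sister of Tek, had a difference of 0.07 with an adjusted p of 0.118, and Angpt4, a further ligand of Tek, one of 0.03 with an adjusted p of 0.558, called with the olfactory covariate (adjusted p = 0.0378).

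The list of 20 further endothelial genes had 7 called higher, 0 lower and 13 not called, against 18.9% higher and 19.3% lower of all probesets, with a median difference of 0.074. The largest differences were those of Sox7, an endothelial transcription factor (0.3 ± 0.043, adjusted p = 1.87e-08), Emcn, a sialomucin of capillaries and veins (0.28 ± 0.0525, adjusted p = 1.03e-05), Nos3, the endothelial nitric oxide synthase (0.21 ± 0.0307, adjusted p = 2.64e-08), and Erg, an ETS factor (0.2 ± 0.0308, adjusted p = 2.42e-07). Ramp2, Eng and Plvap were called with 0.11 to 0.12 units. Other endothelial genes were not called, among them Cldn5 (0.07, adjusted p = 0.413), Sox17 (0, adjusted p = 0.963) and Vwf (0.05, adjusted p = 0.187). With the olfactory covariate 5 of the 7 stayed called (Sox7, Emcn, Nos3, Erg and Plvap), and Ramp2 (adjusted p = 0.241) and Eng (adjusted p = 0.274) did not. With strain as a block 6 were called, without Eng (adjusted p = 0.0556).

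Of 10 regulators of VEGF, 3 were called higher and 1 lower, a share close to that of all probesets. Hif1a, the oxygen-labile subunit of the hypoxia factor, rose by 0.21 ± 0.0323 units (adjusted p = 2.35e-07, higher in 32 of 37 strains), and the prolyl hydroxylases Egln1 and Egln3, which mark Hif1a for decay and are themselves hypoxia targets, rose by 0.11 ± 0.0238 (adjusted p = 8.07e-05) and 0.32 ± 0.111 (adjusted p = 0.0152). Arnt, the partner subunit, fell by 0.09 units (adjusted p = 0.0444). Of these 4, Egln3 lost its call with the olfactory covariate (adjusted p = 0.0658). Ppargc1a, a coactivator known to induce Vegfa in muscle, differed by 0.05 with an adjusted p of 0.404. Of 7 Notch genes of vessels 0 were called by limma; with strain as a block 1 was, Dll4, at an adjusted p of 0.0305.

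**Figure D2:**
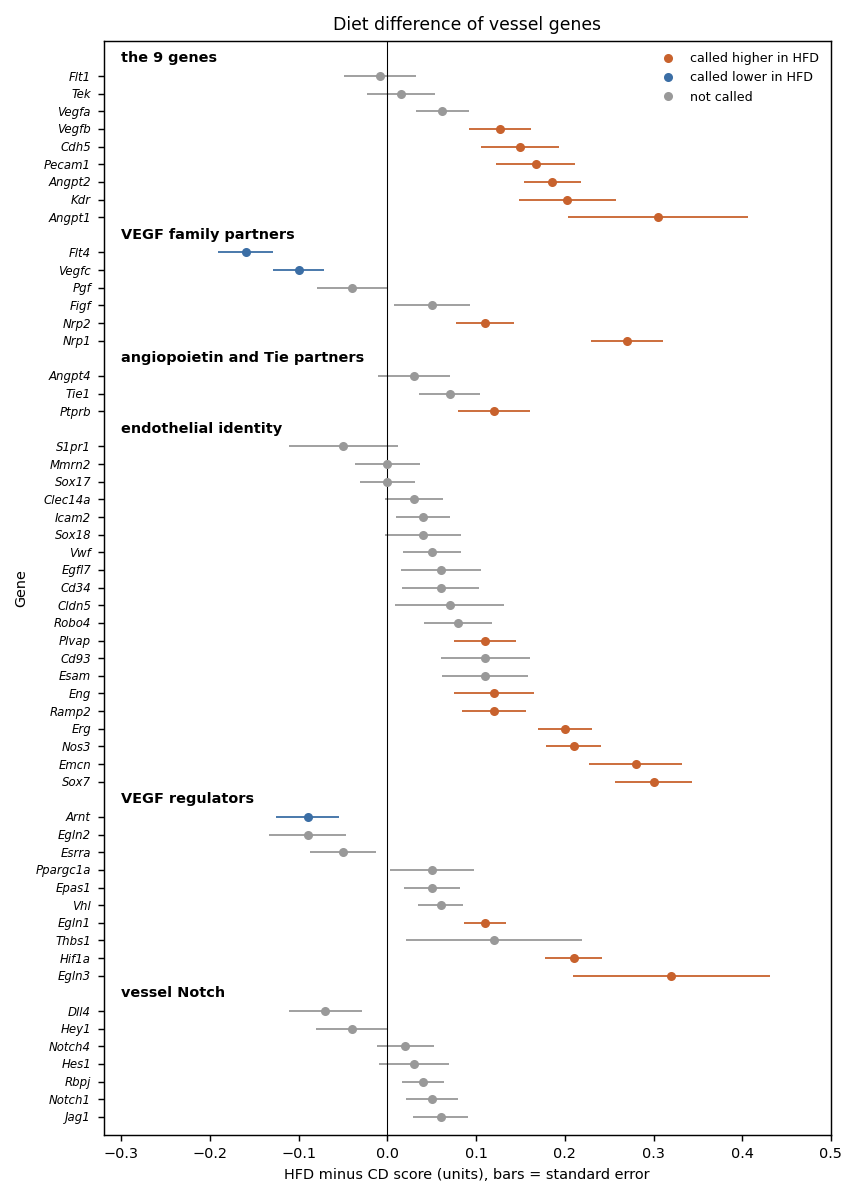
HFD minus CD score in units (x axis) with its standard error for the 9 genes and for 5 lists of vessel genes (y axis); orange marks genes called higher in HFD, blue called lower and grey not called. The 9 genes run from -0.01 for Flt1 to 0.31 for Angpt1, and Vegfc, Flt4 and Arnt are the called genes below 0.

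The diet difference was then read strain by strain. In 9 of 37 strains all 9 genes were higher in HFD (C57BL/6J, BXD43, BXD44, BXD66, BXD70, BXD71, BXD79, BXD81 and BXD100), and in 17 strains at least 7 were. At the other end 3 strains had at most 2 genes higher: BXD56 with 1, BXD63 with 2 and BXD65 with 2. These values varied in direction as well as size, and with 1 pool per strain and diet a strain cannot be told apart from its pools. C57BL/6J had the highest median over the 9 genes, 0.488 units, and BXD56 the lowest, -0.259 units.

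The 2 parental strains differed from each other in these single values. In C57BL/6J Kdr was 0.803 units higher in HFD, Pecam1 0.71 and Cdh5 0.689. In DBA/2J the same genes differed by 0.117, 0.071 and -0.046 units. With 1 array per parent and diet this contrast was not tested.

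**Figure D3:**
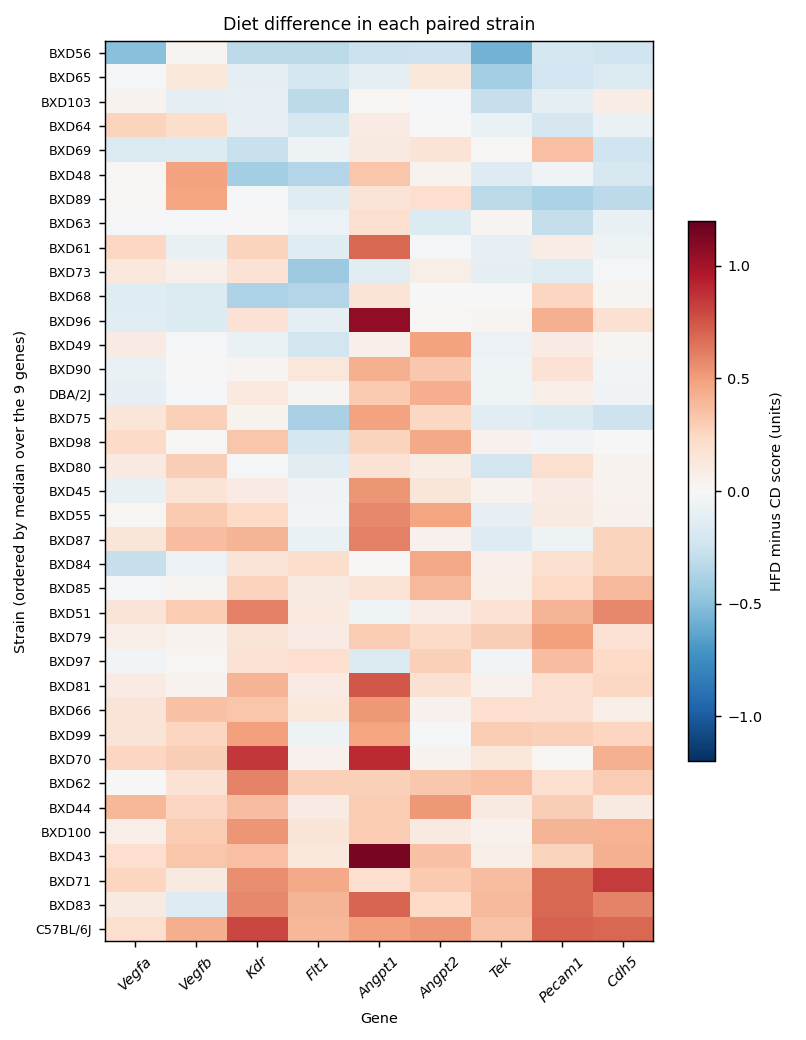
HFD minus CD score in units (colour, red higher in HFD and blue lower) for the 9 genes (columns) in 37 paired strains (rows), ordered by the median over the genes. BXD56 at the top is blue in 8 of 9 genes, C57BL/6J at the bottom is red in all 9, and neighbouring columns Tek, Pecam1 and Cdh5 share much of their pattern.

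The HFD minus CD differences of the strains were then correlated between genes. They are made from the same arrays as the levels on each diet, so covariation within diets enters them, and a response to diet shared by genes was not tested apart from it. Of 36 pairs of genes 17 passed the test with positive r over the 37 strain differences and 0 with negative r (permutation tests, adjusted over 36 pairs), with a median r of 0.35. An r of at least 0.5 was reached by 11 of the 36, and by 2.49% of all pairs of genes on the array. All 10 pairs among the receptors and adhesion genes passed, from 0.52 for Kdr with Pecam1 to 0.8 for Kdr with Cdh5. The range over these 10 pairs was 0.71 to 0.91 in the 12 strains of batch 1, 0.43 to 0.86 in the 17 of batch 2, and 0.53 to 0.78 when the 2 strains farthest from the median of the first gene were left out. For Flt1 and Tek, which were not called for diet, the differences had r = 0.78 for Flt1 with Cdh5 and 0.76 for Tek with Pecam1. Vegfa correlated with its receptor Kdr at r = 0.55 (adjusted p = 0.00112), and Vegfb with Tek at r = 0 (adjusted p = 0.987).

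Covariation across strains was examined within each diet, with batch means removed, over 72 relations. On CD 21 of 36 pairs passed with positive r and 0 with negative r, and on HFD 12 of 36 passed, again with 0 negative. An r of at least 0.5 was reached by 11 of 36 pairs on CD, where 1.21% of all pairs of genes on the array reached it, and by 10 of 36 on HFD, where 3.15% did. By Spearman's rho 19 and 11 pairs passed. The difference in number between diets was not tested.

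All 10 pairs among Kdr, Flt1, Tek, Pecam1 and Cdh5 passed on both diets, with r from 0.5 to 0.85 on CD (median 0.73) and from 0.52 to 0.75 on HFD (median 0.68). Pecam1 and Cdh5, the 2 junction genes, had r = 0.85 (rho = 0.78) on CD and 0.74 (rho = 0.65) on HFD. On CD 0.00448% of other genes correlated as highly with Pecam1 as Cdh5 did, and 0.0761% on HFD. Kdr with Cdh5 had r = 0.82 on CD and 0.73 on HFD, where no other gene correlated with Kdr as highly as Cdh5 did. Within batches the 10 pairs had r of 0.41 to 0.91 (batch 1) and 0.6 to 0.85 (batch 2) on CD, and 0.2 to 0.73 (batch 1) and 0.5 to 0.88 (batch 2) on HFD. The lowest of these, 0.2, was Flt1 with Tek on HFD in 17 arrays. Without the 2 strains farthest from the median of the first gene the 10 pairs had r of 0.34 to 0.79 on CD and 0.38 to 0.71 on HFD; Flt1 with Tek on CD (adjusted p = 0.0731) and Kdr with Pecam1 on HFD (adjusted p = 0.0605) then no longer passed. The olfactory receptor mean also moved with these genes, at r = -0.3 for Kdr, -0.3 for Flt1, -0.36 for Cdh5, -0.49 for Pecam1 and -0.53 for Tek over 79 arrays with diet and batch means removed, and its part in their covariation was not tested.

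Of 20 pairs of a ligand with a receptor or adhesion gene 8 passed on CD (r from -0.02 to 0.54) and 2 on HFD (r from -0.21 to 0.42), and whether they differ from the 10 pairs above was not tested. Without the 2 farthest strains 1 of the 8 still passed on CD, Vegfa with Kdr, and both on HFD, where 4 then passed in all. The 2 passes on HFD, Vegfa with Kdr and Flt1 with Angpt2, each had r = 0.36 without BXD63, against 0.42 with it. Vegfa and Vegfb correlated with each other at r = 0.55 (rho = 0.63, adjusted p = 0.00036) on CD and at r = 0.32 (rho = 0.28, adjusted p = 0.0959) on HFD. Vegfa with its receptor Kdr passed on both diets, at r = 0.54 (adjusted p = 0.00084) and 0.42 (adjusted p = 0.0241). Vegfa with its decoy receptor Flt1 had r = 0.29 (adjusted p = 0.113) and 0.35 (adjusted p = 0.0677), and passed under some alternatives: on HFD without the 2 farthest strains (r = 0.47, adjusted p = 0.0126), with quantile normalization (r = 0.42, adjusted p = 0.0233) and with median centring (r = 0.45, adjusted p = 0.0129), and on CD with median centring (r = 0.34, adjusted p = 0.0487). Vegfb and its receptor Flt1 had r = 0.1 on CD and 0.07 on HFD.

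The angiopoietins were set against the same 5 genes. Angpt2 correlated with the 5 receptor and adhesion genes at r = 0.32 to 0.49 on CD (3 of 5 passed) and 0.17 to 0.42 on HFD (1 of 5 passed, Flt1). Without the 2 farthest strains the 3 passes on CD were lost, with adjusted p of 0.237 for Flt1, 0.0773 for Pecam1 and 0.0732 for Cdh5. Angpt1 had r of -0.02 to 0.41 with the same genes on CD (2 of 5 passed, Tek at 0.41 and Kdr at 0.36) and -0.13 to 0.09 on HFD, where 0 of 5 passed. Its passes on CD were lost in the same way, with adjusted p of 0.0806 for Tek and 0.0651 for Kdr. Angpt1 and Angpt2 had r = 0.02 with each other on CD and 0.07 on HFD. Whether they differ in their relation to the 5 genes was not tested.

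**Figure D4:**
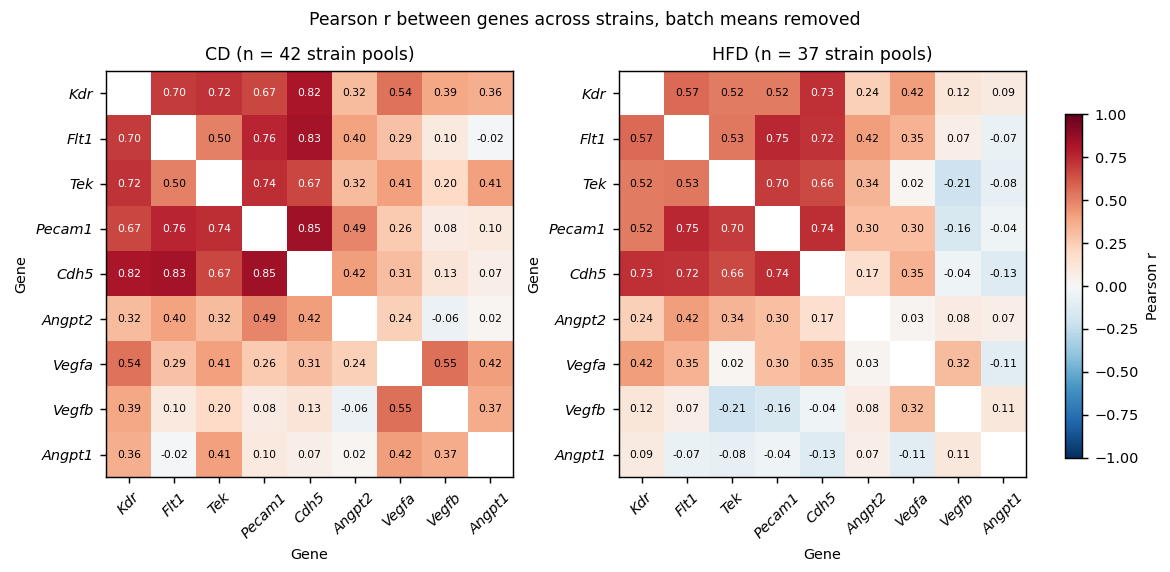
Pearson r (colour and printed value) between the 9 genes across 42 CD strain pools (left) and 37 HFD strain pools (right), batch means removed. The block of Kdr, Flt1, Tek, Pecam1 and Cdh5 at the upper left holds r of 0.5 to 0.85 on CD and 0.52 to 0.75 on HFD, and the Angpt1 row is pale on HFD.

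A strain's level on CD was then set against its level on HFD over the 37 paired strains, with p-values adjusted over 9 genes. Angpt1 was the only gene of the 9 that passed: r = 0.77 and rho = 0.76, each with a permutation p of 1e-05, the smallest possible, and an adjusted p of 9e-05. An r as high was reached by 1.38% of all other genes. It was 0.66 in the 12 strains of batch 1, where it no longer passed (permutation test, adjusted p = 0.165), 0.83 in the 17 of batch 2 and 0.74 in the 8 split between batches, and 0.75 when the 2 most extreme CD strains were left out. Of the 6 lowest strains on CD, BXD51, BXD66 and BXD44 were the 3 lowest on HFD, BXD70 and BXD61 ranked 9th and 10th of 37 from the lowest, and BXD96 ranked 22nd, at 8.001 on CD and 9.069 on HFD. BXD65, BXD84 and BXD64 were high on both.

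For the other genes r lay between -0.14 (Cdh5) and 0.22 (Vegfb), with adjusted p of 0.538 or more. An r of at least 0.5 was reached by 1 of the 9 genes and by 8.87% of all genes, and the median r was 0.16 over the 9 genes and 0.16 over all genes. Cdh5 and Pecam1, which correlated with each other on each diet, had r of -0.14 and 0.01 between diets. The contrast between Angpt1 and the other genes was not itself tested.

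**Figure D5:**
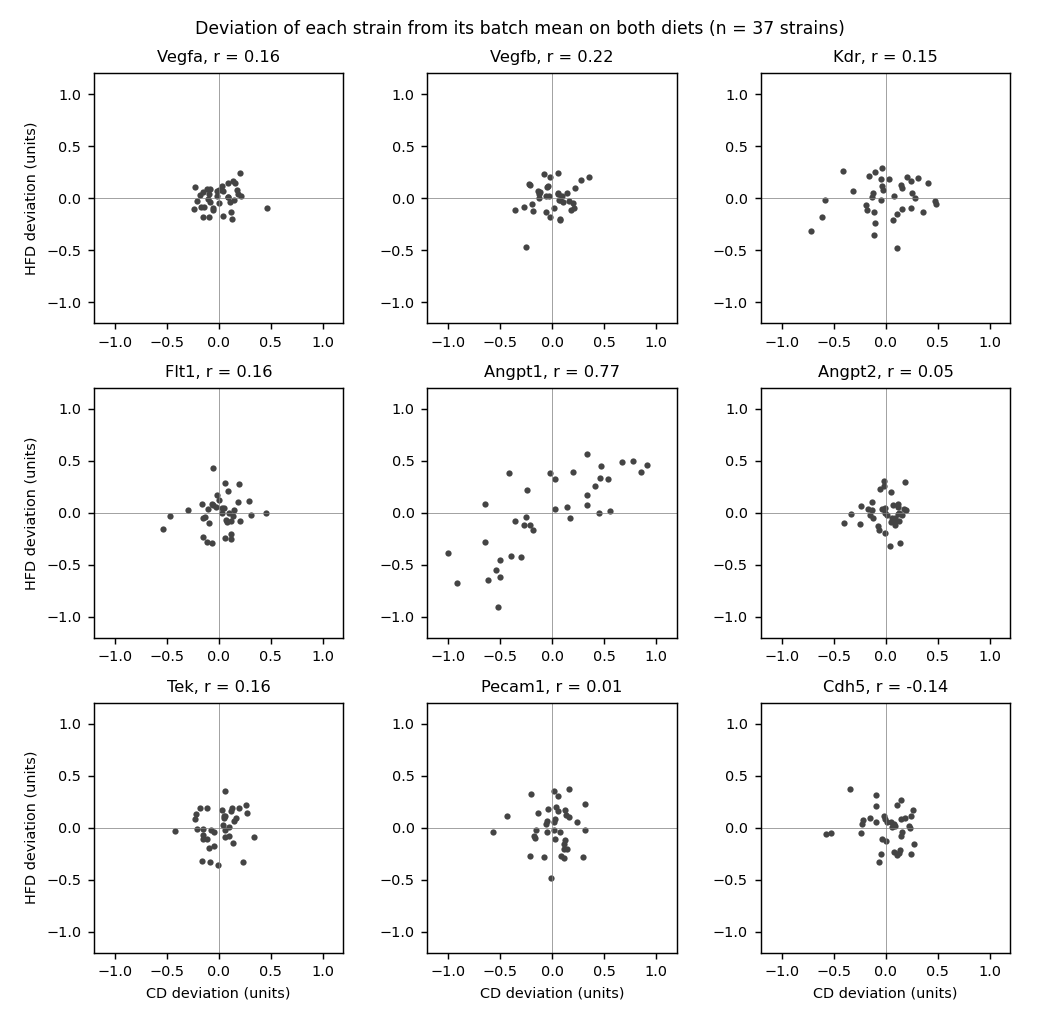
Deviation of each paired strain from its batch mean on CD (x axis, units) and on HFD (y axis, units) for the 9 genes, 1 point per strain (n = 37), all panels on the same scale. Angpt1 forms a rising band (r = 0.77) that spans more than the other genes on both axes, and the other 8 clouds have r from -0.14 to 0.22.

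The spread between strains was widest for Angpt1, with a range of 1.88 units on CD (SD 0.5) and 1.47 on HFD (SD 0.39). These SDs stood at the 99.2nd and 98.3rd percentile of all genes. Kdr followed on CD with a range of 1.21 units (SD 0.29, 96.1st percentile), but on HFD its range was 0.76 (SD 0.18, 70.9th percentile). Vegfa had the least spread on HFD, with a range of 0.44 units (SD 0.11, 8.01th percentile). Its range on CD was 0.72, which rests on BXD56 at 12.331, since the next strain was at 12.068. The median range of the 9 genes was 0.89 on CD and 0.71 on HFD, and 0.42 on each diet between the 10th and 90th percentile of strains. Whether the spread differed between diets was not tested.

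The ends of these ranges were often held by the same pools. On CD, C57BL/6J was the lowest of 42 strains in Flt1, Pecam1 and Cdh5 and the second lowest in Kdr and Angpt2, and BXD83 was the lowest in Kdr and Tek and the second lowest in Flt1, Pecam1 and Cdh5. On HFD, C57BL/6J ranked 7th to 36th of 37 from the lowest over the 9 genes. On HFD, BXD63 was the lowest in Angpt2, Pecam1 and Cdh5, and BXD97 was the highest in Pecam1 and the second highest in Flt1, Tek and Angpt2.

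The parental strains were compared in a fit over all arrays with strain, diet and batch as terms, which assumes that the parents vary like the BXD strains. The fitted difference pooled over diets was below 0 (lower in C57BL/6J than in DBA/2J) in all 9 genes, but 0 passed, where 1.26% of all probesets were called. Unadjusted p-values lay below 0.05 in 3 genes. Angpt1 was 8.374 in C57BL/6J and 9.117 in DBA/2J on CD, and 8.862 and 9.427 on HFD, a difference of -0.65 ± 0.227 (unadjusted p = 0.00641, adjusted p = 0.215) that had the same sign on both diets. Kdr was 9.391 and 10.285 on CD and 10.194 and 10.402 on HFD, a difference of -0.55 ± 0.207 (unadjusted p = 0.0115, adjusted p = 0.3). Flt1 differed by -0.38 ± 0.147 (unadjusted p = 0.0131, adjusted p = 0.323). The junction genes were apart on CD and level on HFD in these single arrays: Cdh5 was 10.868 and 11.589 on CD and 11.557 and 11.543 on HFD. On HFD alone Vegfa, Vegfb, Tek and Cdh5 were higher in C57BL/6J, by small margins such as 11.953 against 11.9 for Vegfa.

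Genes most like each of the 9 were ranked by Pearson r over 79 arrays with diet and batch means removed, and are given as a description. Pecam1 was most like Esam, an endothelial junction molecule (r = 0.83), Rasgrf2 (0.83) and the collagen-binding integrin Itga1 (0.79), and Cdh5 was most like Ptprb (0.83), the pericyte receptor Pdgfrb (0.8) and Esam (0.76). Kdr was most like its coreceptor Nrp1 (0.8), then the endothelial receptor Cd93 (0.79) and the laminin-binding integrin Itga6 (0.77). Flt1 was most like Gpr116 (0.82), Pdgfrb (0.78) and Ptprb (0.76). Tek was most like Utrn, which encodes the dystrophin relative utrophin (0.8), Rasgrf2 (0.8) and Rod1 (0.76). These 5 genes had 15 to 28 genes at r of 0.7 or more.

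Among the ligands, Vegfb was most like 1300001I01Rik (0.76), the mitochondrial pore regulator Ppif (0.75) and the mitochondrial prohibitin Phb (0.72). Vegfa was most like Ppargc1b, a coactivator of mitochondrial genes (0.59), Acss2, an acetyl-CoA synthetase (0.56), and Slc41a1, a magnesium transporter (0.55). Angpt2 was most like Ppp1r12a at 0.51, then Utrn and Pms1 at 0.49.

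Angpt1 was most like Eif3e, a translation initiation factor subunit (0.68), Chac2 (0.64) and Pkhd1l1 (0.63). Eif3e and Pkhd1l1 neighbour Angpt1 on chromosome 15 in the RefSeq gene order, with 1 and 7 coding genes between. Of 94 measured genes within 50 coding genes of Angpt1, 3 were among its 50 most correlated genes (Eif3e, Pkhd1l1 and Samd12), where the other 8 genes of interest had 0 or 1 such neighbour. Counted by r, 3 neighbours had r of at least 0.5 for Angpt1, Tek and Cdh5 alike, and 1 had r of -0.5 or below for Angpt1 and for Tek. Among all genes, 0.273% had r of at least 0.5 with Angpt1, 1.92% with Tek and 1.05% with Cdh5. Whether the neighbourhoods differ was not tested. The median r of the 94 with Angpt1 was 0.06. Another neighbour, Deptor, an inhibitor of the mTOR kinase, ran the other way at r = -0.66, with 29 coding genes between. These neighbours were picked with their values known, and genotypes were not used here.

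Scores of 9 cell type lists were correlated with the 9 genes on each diet, and 26 of 162 relations passed after adjustment (31 by Spearman's rho). Of the 26, 10 were with the endothelial list and 12 with the mural list. Kdr, Flt1, Tek, Pecam1 and Cdh5 passed with both lists on both diets. Cdh5 had r = 0.87 with the endothelial list and 0.86 with the mural list on CD, and 0.79 and 0.75 on HFD. The weakest of these relations, Kdr with the mural list on HFD, had r = 0.6. Within batches the lowest values were those of Tek on HFD in batch 1, r = 0.31 with the mural list and 0.37 with the endothelial list. The 5 receptor and adhesion genes thus moved with the scores of both vessel lists across strain pools. Of the ligands, Vegfa and Angpt2 passed with the mural list on CD, each at r = 0.41, and Vegfb and Angpt1 with the slow fibre list on CD, at r = 0.41 (adjusted p = 0.0439) and 0.47 (adjusted p = 0.0147). Angpt2 with the mural list had r = 0.26 without the 2 farthest strains, 0.61 in batch 1 and 0.26 in batch 2. Several of these relations lay near the threshold: Vegfa had r = 0.36 with the slow fibre list, which passed by rho (adjusted p = 0.0452), as did Vegfa (adjusted p = 0.0442) and Vegfb (adjusted p = 0.0271) with the endothelial list, and by rho Vegfa with the mural list (adjusted p = 0.0595) and Vegfb with the slow fibre list (adjusted p = 0.0502) did not pass. No ligand passed by r with any list on HFD. By rho Vegfa passed there with the mural list (adjusted p = 0.0419) and Angpt2 with the macrophage list (rho = 0.47, adjusted p = 0.0271). Angpt2 with the red blood cell list on HFD passed by rho in the negative direction (rho = -0.43, adjusted p = 0.0467). Differences between the ligands were not tested. Tek also passed on CD with macrophage genes (r = 0.49, adjusted p = 0.00671) and fibroblast genes (r = 0.42, adjusted p = 0.0361). Pecam1 with the fast fibre list on CD was also negative, at r = -0.35 and rho = -0.41, and passed by rho (adjusted p = 0.0452). The adipocyte list passed with none of the 9 genes by r or rho, with r from -0.13 to 0.24 on CD and from -0.22 to 0.28 on HFD.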

How the data were processed

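Total RNA from quadriceps was measured on Affymetrix Mouse Gene 1.0 ST arrays, and the submitters' processing notes name Affymetrix Expression Console. The deposited values are a score per probeset with a mean of 8.0 and an SD of 2.0 on each array, made by the authors with a log base, background method and batch correction that are not given in the sources used here. The tests fit log-type values, and arrays carry no counting depth, so that their number limits precision. A gene is represented by its brightest probeset. The chow column BXD92 was matched to the sample BXD92a.

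Diet was fitted with limma 3.58.1 (lmFit, eBayes) with diet and batch as terms over 79 arrays, with a threshold of 0.05 on p-values adjusted over all 35556 probesets by Benjamini and Hochberg. In simulated data with independent normal noise and 200 of 35556 probesets changed by 1 SD, 139 of the 200 were recovered, with 5 false calls. In the deposited values 38.1% of probesets were called and genes were correlated, so these counts do not give the error rates of this comparison. Correlations used batch-centred values within a diet and two-sided permutation tests with 100000 draws. Arrays were paired by the strain in the labels: deviations of the 2 arrays of a strain correlated at a median of 0.205 and above 0.1 in 33 of 37 strains. A mixture of 2 components was taken as separate clusters of strains where it lowered the Bayesian information criterion by at least 10, which no gene reached; Cdh5 on CD was the only case where it was lower, by 2.01. Alternatives covered batch, strains, block, tests, scaling, dim probesets and an olfactory receptor covariate. The genes and lists were chosen with earlier results of these data known, and the contrasts between genes and the list counts with the covariate or without BXD63 were chosen after seeing the data. The 3 most similar genes per gene were named by rank. R 4.3.3, Python, numpy, pandas and scipy were used. RefSeq tables of GRCm38.p6 gave promoters and gene order; the deposited table names no build.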

Additional observations from a re-analysis of the deposited data

How the results depend on the processing

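With strain as a replicate block (paired strains), 6 genes were again called higher in HFD, and it changed no call among the 9; it left 2 mural and 6 endothelial list genes called higher, with 7 of the macrophage and 2 of the fibroblast list. Called genes numbered 6 without a batch term, in paired strains without the block, without the parental strains, without BXD63, with limma-trend, with quantile normalization and with the methods' t-test, 7 with median centring, which added Vegfa (adjusted p = 0.0344), and 5 without dim probesets, where Angpt2 was not tested. They numbered 2 in batch 1 alone, 3 in batch 2 alone and 2 with the olfactory receptor covariate, settings in which 12.6%, 24.4% and 11033 of 35556 probesets were called (Kdr 0.14 to 0.24 and Vegfb 0.12 to 0.15 units), and 6 to 7 when each strain was left out; fewer arrays stand behind the batch values, and the cause of the covariate's effect was not tested. No gene was called lower under any of these settings. Flt1 ran from -0.06 to 0.02 units and Tek from -0.07 to 0.03 over these settings, never called. Without BXD63 the endothelial list had 8 genes called higher and the mural list 3. Each gene has 1 probeset, so no other probeset could be tried. Of 72 correlations between genes 33 passed, and 12 passed in batch 1 alone and 20 in batch 2 alone, with 24 to 43 under the other settings. Cross-diet correlation passed in 1 gene, except in batch 1 alone, where 0 did (Angpt1 r = 0.66, adjusted p = 0.165, 12 strains). No parental difference passed under any alternative. Between the 10th and 90th percentile of strains the median range was 0.42 on CD and 0.42 on HFD. Relations with marker lists numbered 26, also without removal of batch means, and 35 with median centring. The number of strain pools limits what could be detected.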
